A study of Mus musculus with 13 samples.

Results

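The BCL2 family of survival and death genes was followed as 9 genes: the pro-survival members Bcl2, Bcl2l1 and Mcl1, the pore-forming effector Bak1, and the BH3-only members Bcl2l11, Bid, Bad, Bmf and Bik. They were taken by symbol from a table of 24421 genes, and 9 of 9 were found in it. Proteins of this family meet at the outer membrane of the mitochondrion. The pro-survival proteins hold the effectors BAK and BAX in check, and BH3-only proteins release that hold, after which cytochrome c leaves the mitochondrion and caspases are activated. In the mammary gland these genes are best known for their part in the loss of milk-producing cells at weaning; BIM is also known as a death signal that growth factor receptor pathways such as that of HER2 hold down. Many of these proteins are controlled by phosphorylation, cleavage or degradation, which RNA levels do not show.

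RNA was sequenced from 13 samples, 11 of mammary tumors and 2 of mammary glands free of cancer. The female mice were of the FVB/N background with the transgene TgN (MMTV-HER2/neu) 202Mul/J. All of these mice, the gland donors included, carry a rat HER2/neu transgene driven in mammary epithelium by the promoter of the mouse mammary tumor virus, so that no group lacks the transgene; the labels give their genotype otherwise as wild type. The 3 primary untreated tumors and the 2 glands came from untreated mice. The 3 primary STV tumors developed in mice that drank stavudine (STV), a nucleoside inhibitor of reverse transcriptase. The dose was 1 mg/mL, an estimated 200 mg/kg per day. By the study's scheme, mice that drank STV before any 17-DMAG did so from 2 months of age. The 3 recurrent 17-DMAG tumors had regrown after complete responses to 17-DMAG, a drug against the HSP90 chaperone that was injected at 20 mg/kg 3 times per week; by the study's methods, injections went on until the regrown tumors were collected, so that recurrence and ongoing drug cannot be told apart. The 2 recurrent 17-DMAG+STV tumors had regrown after the same 17-DMAG regimen in mice kept on STV. For these, STV began at 2 months of age or with 17-DMAG when tumors appeared, and the labels do not say which. Neither ages at collection nor whether tumors of a group came from separate mice are in the labels, so p-values measure the spread between these samples, which may be technical. The libraries of recurrent tumors come from mice that had lived through remission, and time and treatment cannot be told apart.

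Library totals ran from 39921388 to 56887708 counts, and the lowest count of any of the 9 genes in any library was 93, for Bik in gland 2. The glands differed from each other: 6 milk protein genes took 3.05% of the counts of gland 1 and 34.1% of those of gland 2, and the summed level of 5 B cell markers was 164 CPM in gland 1 and 3.46 CPM in gland 2. The 5 luminal epithelial markers summed to 1242 to 2662 CPM in the tumors, with no tumor lacking any of them, and to 1351 and 1586 CPM in the glands. The sum hides a split: tumors over glands, the log2 fold change was -5.79 for Krt19. It was 0.50 for Krt8, 0.85 for Krt18, 0.71 for Epcam and 0.62 for Cdh1. Recurrent 17-DMAG tumor 1 had the highest macrophage sum of all libraries, 478 CPM against 126 to 235 CPM in the other tumors. The 6 proliferation genes summed to 157 and 356 CPM in the recurrent 17-DMAG+STV tumors and to 491 to 819 CPM in the other tumors. CPM are counts relative to the library total after scaling by the trimmed mean of M-values (TMM). In bulk tissue a lower level can come from fewer cells of a type or from less RNA per cell, which cannot be told apart.

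The genes lie on 7 chromosomes of the mouse genome build GRCm38.p6. Bcl2 spans chr1:106538176-106714290 on the minus strand, Mcl1 chr3:95656944-95663179 on the plus strand and Bak1 chr17:27019812-27028627 on the minus strand. Chromosome 2 holds Bcl2l1 at chr2:152758732-152833803 and Bmf at chr2:118528757-118549686, both on the minus strand, and Bcl2l11 at chr2:128126038-128162547 on the plus strand. Bid lies at chr6:120893119-120917062 on the minus strand, Bad at chr19:6941861-6951905 and Bik at chr15:83526790-83544635, both on the plus strand. Exons of a gene on the opposite strand cover 25.5% of the exon length of Bak1 (Ggnbp1), 20.5% of Bad (Gpr137), 17.7% of Bid (Bcl2l13) and 6.09% of Bcl2 (D630008O14Rik). The strand setting of the counting step is not given in the sources used here, so reads of these pairs may be mixed. In the tumors the partner Ggnbp1 was at 3.77 to 20.8 CPM, Gpr137 at 10.7 to 15.7 CPM and Bcl2l13 at 63.8 to 82.2 CPM.

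RefSeq lists a promoter window for 8 of the 9 genes, and the 250 bases before the start are shown for the 2 genes whose tumor levels lay farthest above the glands on the log2 scale relative to their standard error. The Bcl2 window is chr1:106714291-106714540, read on the minus strand. Capitals mark the GC box GGGCGG or its reverse complement, of which there are 7. Either form is present in 32.7% of 32851 mouse windows of this length. For Bcl2l11, the table lists 2 windows, of which the one farther upstream is shown, chr2:128125788-128126037 on the plus strand. Capitals mark its single match to GTAAACA, the core bound by FOXO factors, which is present in 3.17% of windows and not in the other window. The shown window also holds 3 GC boxes, left in lower case. Of the other motifs searched on both strands, GAANNTTC (6.69% of windows) was in neither shown window, and TGACG (17.8%) was in that of Bcl2 at 1 place. A match describes the letters and is not evidence of binding.
Bcl2: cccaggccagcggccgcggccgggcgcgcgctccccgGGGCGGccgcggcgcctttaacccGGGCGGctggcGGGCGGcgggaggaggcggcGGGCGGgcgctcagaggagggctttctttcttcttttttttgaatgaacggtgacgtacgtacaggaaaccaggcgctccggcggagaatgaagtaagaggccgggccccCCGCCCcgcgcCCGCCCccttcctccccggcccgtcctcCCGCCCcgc
Bcl2l11: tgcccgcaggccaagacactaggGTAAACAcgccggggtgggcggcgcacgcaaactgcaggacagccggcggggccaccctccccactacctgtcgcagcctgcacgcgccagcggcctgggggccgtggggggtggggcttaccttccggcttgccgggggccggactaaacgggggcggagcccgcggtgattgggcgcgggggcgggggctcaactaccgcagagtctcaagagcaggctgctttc

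Per kilobase of merged exons, Mcl1 had the highest level of the 9 genes in all 13 libraries. Its tumor mean was 54.4 ± 6.91 CPM per kb (SD, n = 11), and Mcl1 exceeded Bak1, the next gene in order, in 11 of 11 tumors. Bak1 followed with 19.4 ± 5.52 CPM per kb, Bcl2 with 15.3 ± 4.23 and Bcl2l1, which encodes BCL-XL, with 14.6 ± 2.85. The order of Bcl2 and Bcl2l1 was not fixed: Bcl2 was the higher in 5 of 11 tumors. Bcl2l11, which encodes the BH3-only protein BIM, stood at 10.2 ± 1.91 CPM per kb, below Bcl2l1 in 10 of 11 tumors. The lowest tumor means were 7.95 ± 3.0 CPM per kb for Bik, 7.82 ± 2.06 for Bid, 7.50 ± 5.54 for Bmf and 6.40 ± 1.08 for Bad. These 4 neighbours overlapped widely, with Bik above Bid in 5 tumors, Bid above Bmf in 7 and Bmf above Bad in 4. Exon lengths came from GENCODE M21 and not from the annotation the reads were counted on, so that levels per kb are approximate.

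**Figure D1:**
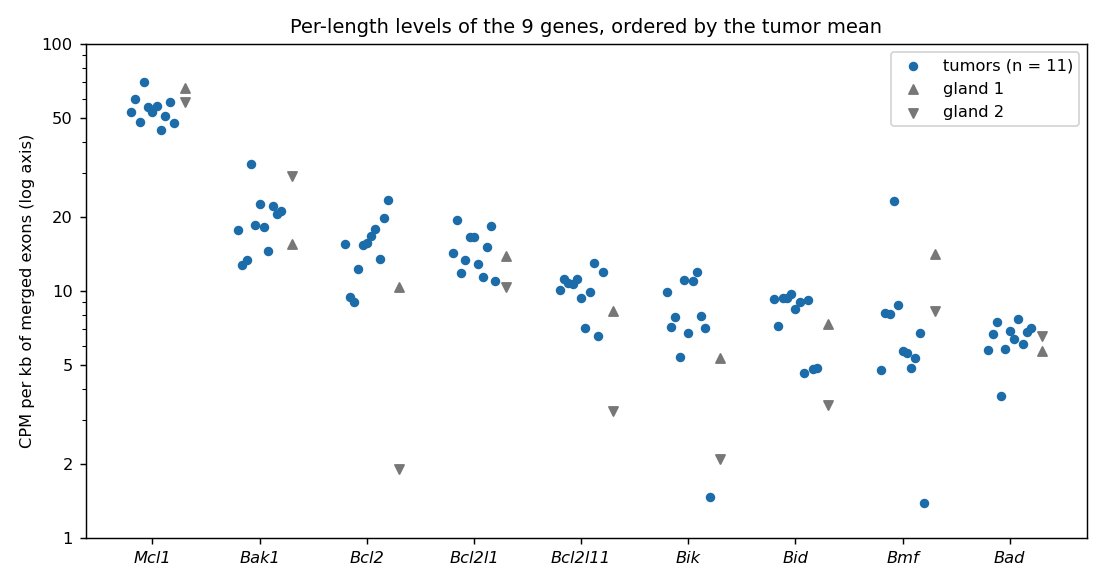
Level per kilobase of merged exons (CPM per kb, log axis) of the 9 genes, ordered by the tumor mean; circles are the 11 tumors and triangles the 2 glands. Mcl1 lies above all others in every library, with a tumor mean of 54.4 CPM per kb, and in gland 2 Bcl2 is the lowest of the 9.

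The first comparison asked how tumors differ from the cancer-free gland. Among the pro-survival genes, Bcl2 was the one with the largest difference. It was at 94.6 CPM in gland 1 and 17.5 CPM in gland 2, and at 83.0 to 214 CPM in the 11 tumors, with a median of 141 CPM. Gland 2 lay under every tumor, while gland 1 lay above 2 primary untreated tumors, so that the groups overlapped. The log2 fold change of Bcl2, tumors over glands, was 1.33 (SE 0.48, 95% interval 0.26 to 2.40, adjusted p = 0.102 by edgeR's quasi-likelihood test with Benjamini-Hochberg adjustment), which did not pass the threshold of 0.05. Of the 9 genes, 0 were called in this comparison, where 10.4% of the 17135 genes tested were called, and 0 in primary untreated tumors against glands, where 2.11% were. At an unadjusted p under 0.05 stood 2 genes, Bcl2 and Bcl2l11, for the tumors (29.6% of all genes) and 1, Bcl2l11, for the primary untreated tumors (24.5%). In the primary untreated tumors the log2 fold change of Bcl2 was 0.88 (95% interval -0.29 to 2.06, edgeR adjusted p = 0.317). It ran from 0.23 to 2.61 with 1 library left out. DESeq2 and limma voom each called 0 of the 9 in the primary untreated tumors and 1 in the tumors together, Bcl2 higher, with log2 fold changes of 1.31 (adjusted p = 0.0256) and 1.65 (adjusted p = 0.0467). Over all genes DESeq2 called 13.7% and 18.9% in these comparisons and limma voom 2.41% and 9%, so that 1 of 9 is near the share of all genes.

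Which gland entered decided these calls. Without gland 1, edgeR called 3 of the 9 genes, beside 24.2% of all genes, each higher in the tumors than in gland 2: Bcl2 (log2 fold change 3.05, adjusted p = 0.000568), Bcl2l11 (1.66, adjusted p = 0.0110) and Bid (1.12, adjusted p = 0.0401). The same 3 genes were called in primary untreated tumors, beside 19.2% of all genes, with 2.61 for Bcl2 (adjusted p = 0.00230), 1.74 for Bcl2l11 (adjusted p = 0.0149) and 1.35 for Bid (adjusted p = 0.0327). Without gland 2, the differences of tumors from gland 1 were 0.66 for Bcl2, 0.36 for Bcl2l11 and 0.081 for Bid, and 0 of the 9 were called, beside 3.01% of all genes (1.45% in primary untreated tumors). In both cases the lone gland was assumed to vary like the other groups. Gland 1 is the gland with the B and T cell transcripts, and BCL2 is a known survival factor of lymphocytes. The B cell sum was 164 CPM there and 1.24 to 3.13 CPM in the tumors, and the T cell sum 90.5 CPM against 2.02 to 7.65 CPM, with the defining B cell marker Ms4a1 at 0 in some recurrent tumors. Gland 2 is the gland with the milk transcripts. The part of these transcripts in the Bcl2 difference was not tested.

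**Figure D2:**
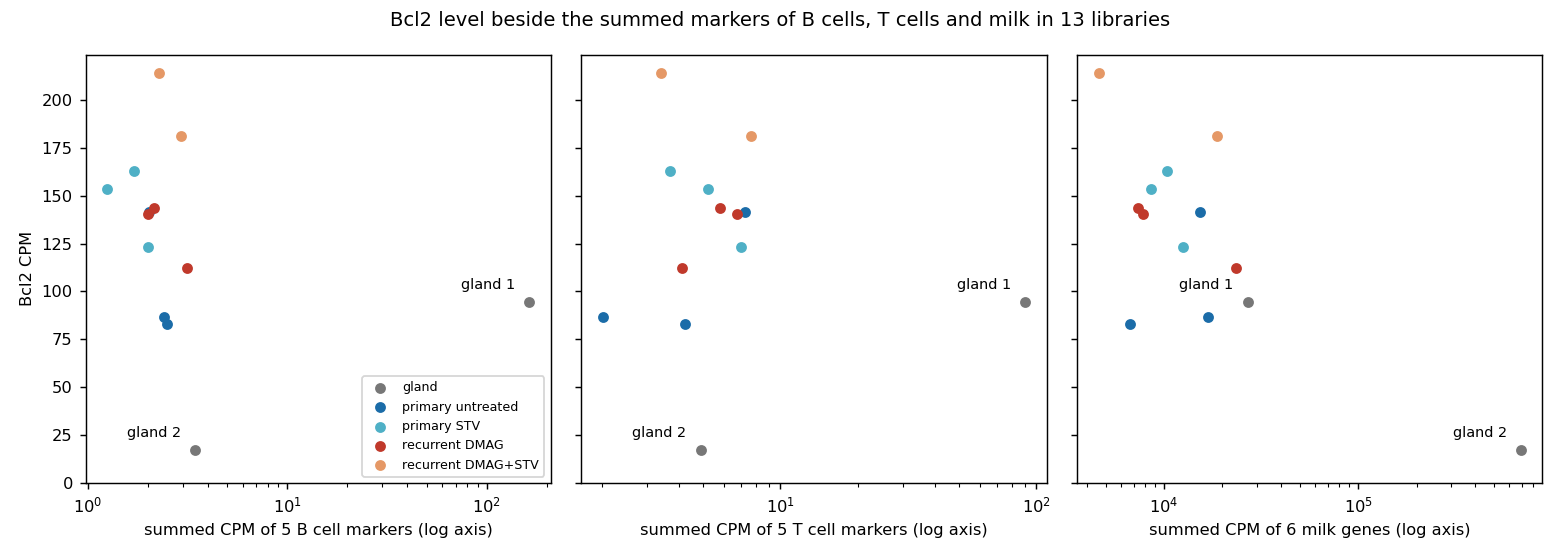
Bcl2 level (CPM) in each of the 13 libraries against the summed level (CPM, log axes) of 5 B cell markers, 5 T cell markers and 6 milk protein genes; colors mark the groups. Gland 1 has the highest B and T cell sums, 164 and 90.5 CPM, gland 2 the highest milk sum, and the 4 tumors with the highest Bcl2 levels have B cell sums of 1.24 to 2.93 CPM.

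The other pro-survival genes were closer between gland and tumor. Mcl1, whose short-lived protein binds BIM and BAK, was at 226 CPM in gland 1 and 198 CPM in gland 2, inside the tumor range of 153 to 240 CPM. Its log2 fold change was -0.20 (95% interval -0.51 to 0.12), the narrowest interval of the 9 genes. Bcl2l1 was at 63.7 CPM in gland 1, 47.6 CPM in gland 2 and 50.2 to 88.8 CPM in the tumors, a log2 fold change of 0.26 (-0.25 to 0.77). Both ranges overlapped between gland and tumor.

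Among the death genes the BH3-only members did not share a direction. Bcl2l11 was at 66.8 and 26.3 CPM in the glands and at 81.0, 89.9 and 86.2 CPM in the primary untreated tumors. These 3 tumors lay above both glands, with a log2 fold change of 0.88 (SE 0.38, 95% interval 0.03 to 1.73, edgeR adjusted p = 0.192). Bik, a BH3-only protein of the endoplasmic reticulum, was also higher in each primary untreated tumor (15.8, 11.4 and 12.5 CPM) than in either gland (8.53 and 3.32 CPM). Its interval was wide, from -0.20 to 2.51 around 1.15. Bmf, a BH3-only protein linked to cell detachment, lay the other way, at 74.5 and 43.7 CPM in the glands and 25.1, 42.9 and 42.4 CPM in the primary untreated tumors (log2 fold change -0.68, 95% interval -2.11 to 0.74). Without overlap between the groups were these 3 of the 9 genes, against 39.2% of all genes. Over the 4 tumor groups together, 0 of the 9 were free of overlap with the glands, against 11.5% of all genes.

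Bid links death receptors to the mitochondrion once caspase-8 has cut it, and Bad is held inactive by survival kinases. Bid was at 26.2 and 12.3 CPM in the glands and at 16.5 to 34.4 CPM in the tumors, with a log2 fold change of 0.44 (95% interval -0.21 to 1.09). Bad was at 14.6 and 16.8 CPM in the glands and 9.61 to 19.6 CPM in the tumors (0.07, -0.39 to 0.53). Bak1, the effector, was at 37.3 and 70.6 CPM in the glands and 30.6 to 78.3 CPM in the tumors (-0.22, -0.79 to 0.35). Scaling by library totals alone turned the Bak1 and Mcl1 differences of tumors from glands to 0.35 and 0.15, and moved the median of all genes to 0.37.

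**Figure D3:**
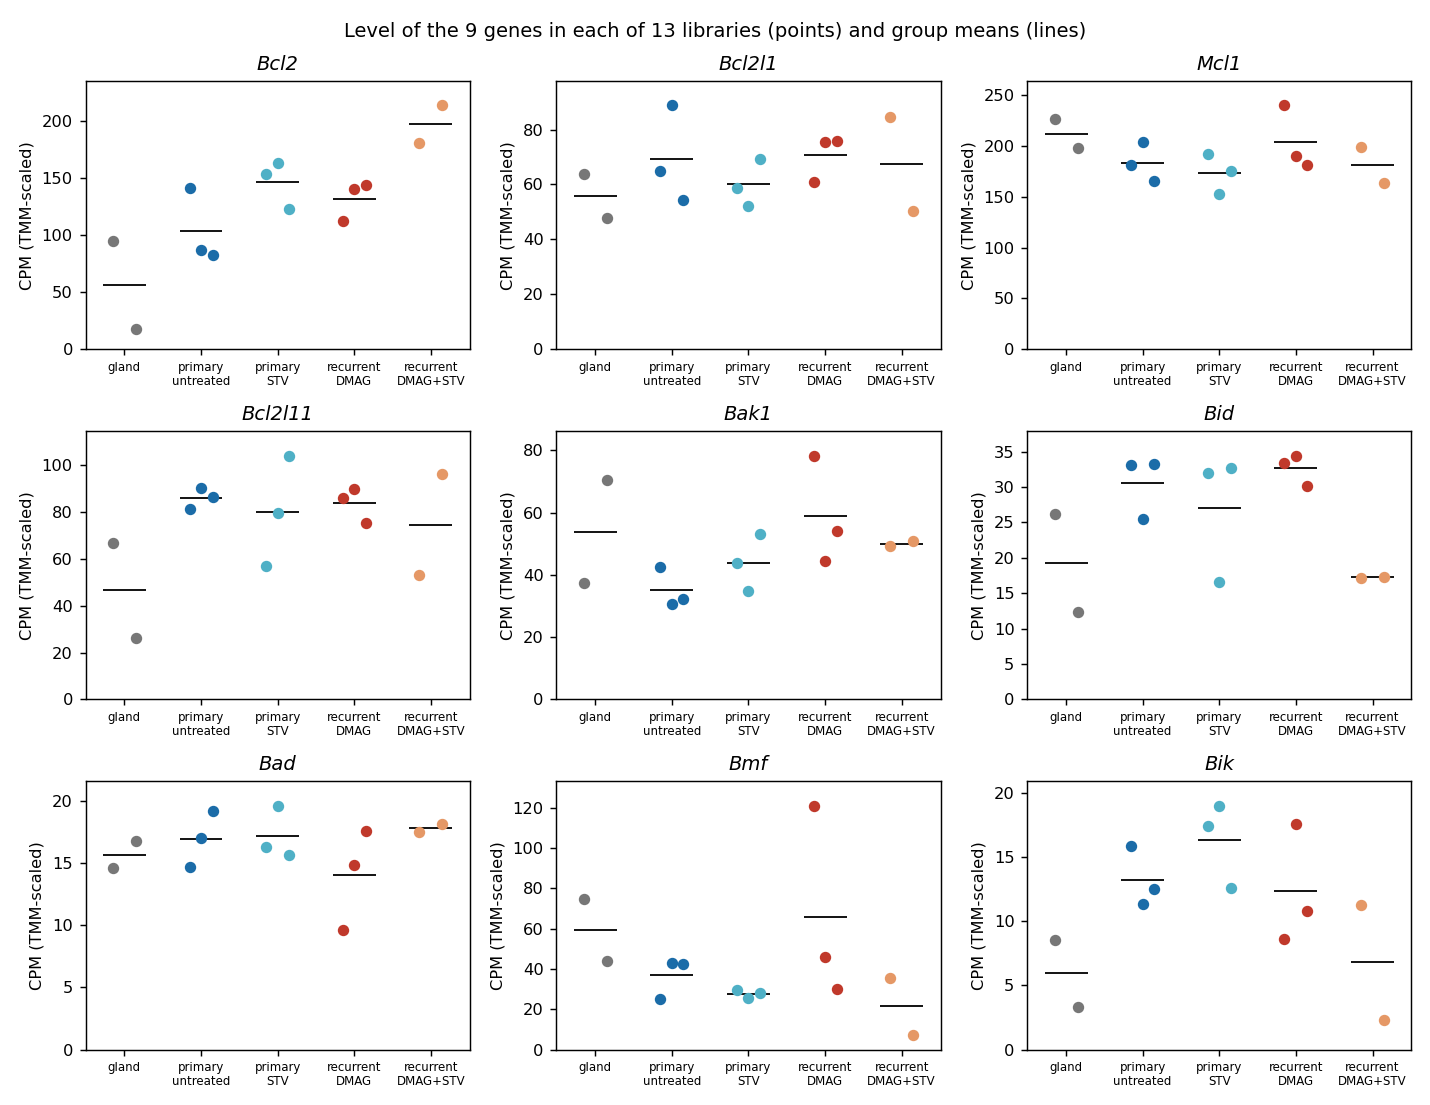
Level (TMM-scaled CPM, linear axes from 0) of each of the 9 genes in each library (points) with group means (lines), for 2 glands, 3 primary untreated, 3 primary STV, 3 recurrent 17-DMAG and 2 recurrent 17-DMAG+STV tumors. Bcl2 has its highest group mean, 197 CPM, in the recurrent 17-DMAG+STV tumors, and Bmf reaches 121 CPM in 1 recurrent 17-DMAG tumor.

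The next comparison asked whether STV changed the family. In primary tumors, STV against no treatment, 0 of the 9 genes were called, as were 0% of the 16870 genes tested, and Bcl2 was the 1 gene at an unadjusted p under 0.05 (3.76% of all genes). No gene of the 9 was free of overlap between the groups, against 10.8% of all genes. Bcl2 was at 141, 86.7 and 83.0 CPM without STV and at 154, 163 and 123 CPM with it. Untreated tumor 1 lay above STV tumor 3 and the other 2 untreated tumors below all 3. The log2 fold change was 0.49 (SE 0.21, 95% interval 0.01 to 0.97, edgeR adjusted p = 1.00), and without untreated tumor 1 it was 0.78 (adjusted p = 0.306). For the other 8 genes the log2 fold changes ran from -0.42 for Bmf to 0.31 for Bak1, all with intervals that include 0. The narrowest of these was that of Mcl1, -0.43 to 0.24.

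In recurrent tumors, 17-DMAG+STV against 17-DMAG alone, 0 of the 9 genes and 0% of all genes were called, and 3 of the 9 stood at an unadjusted p under 0.05 (7.84% of all genes). Bid was at 33.4, 34.4 and 30.1 CPM without STV and at 17.2 and 17.3 CPM with it. The groups did not overlap, which held for 2 of the 9 genes and 21.5% of all genes, and the log2 fold change was -0.91 (SE 0.27, 95% interval -1.52 to -0.31, edgeR adjusted p = 0.409). Over all alternatives it stayed between -0.97 and -0.86, with adjusted p from 0.0677 by DESeq2 to 1.00. The second gene without overlap was Bcl2, at 112, 140 and 144 CPM without STV and 181 and 214 CPM with it, a log2 fold change of 0.59 (SE 0.24, 95% interval 0.06 to 1.12, adjusted p = 0.607).

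Bmf was the third of these genes, and its value moved with the libraries included. It was at 121, 46.0 and 30.0 CPM in the recurrent 17-DMAG tumors and at 35.5 and 7.30 CPM in the recurrent 17-DMAG+STV tumors. The log2 fold change was -1.61 (95% interval -3.20 to -0.03, edgeR adjusted p = 0.629). Without 17-DMAG tumor 1, the tumor with the macrophage sum of 478 CPM, it was -0.83, and without 17-DMAG+STV tumor 2 it was -0.89. Without 17-DMAG+STV tumor 1 it was -3.18 (edgeR adjusted p = 0.151). 17-DMAG+STV tumor 2 had the lowest Bik of all libraries, 2.32 CPM against 11.3 CPM in the other tumor of its group. It also had the lowest luminal epithelial sum, 1242 CPM, beside a skeletal muscle sum of 1325 CPM. The part of tissue composition in these values was not tested.

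Averaged over primary and recurrent tumors, a contrast added after the Bcl2 values had been seen, the log2 fold change with STV was 0.54 for Bcl2 (SE 0.16, 95% interval 0.18 to 0.90) and -0.55 for Bid (SE 0.18, -0.95 to -0.16), each with an edgeR adjusted p of 0.993. These 2 genes were at an unadjusted p under 0.05, as were 4.71% of all genes, and 0 genes of the table were called. Without overlap were 0 of the 9 and 0.219% of all genes. The Bcl2 average ran from 0.47 to 0.68 over the alternatives. Since this contrast repeats the libraries of both STV comparisons, it is no further evidence.

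**Figure D4:**
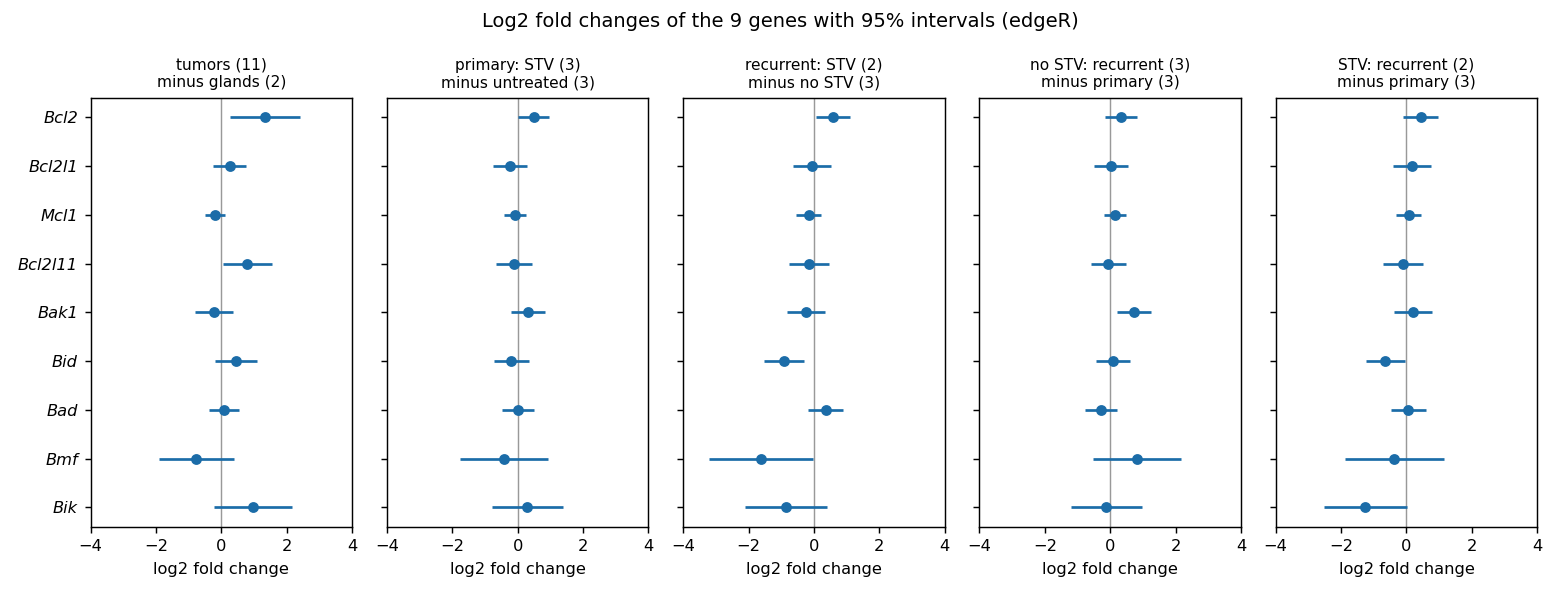
Log2 fold changes (points) with 95% intervals (lines) of the 9 genes by edgeR in 5 comparisons, with the number of libraries in parentheses. Intervals lie above 0 for Bcl2 in tumors minus glands and both STV comparisons, for Bcl2l11 in tumors minus glands and for Bak1 in recurrence without STV; they lie below 0 for Bid with STV in recurrent tumors and in recurrence under STV, and for Bmf with STV in recurrent tumors.

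The last comparisons asked whether tumors that had regrown after 17-DMAG differed from primary tumors. Without STV, 0 of the 9 genes and 0% of all genes were called, and Bak1 was the 1 gene at an unadjusted p under 0.05 (9.69% of all genes). Bak1 was at 42.4, 30.6 and 32.2 CPM in the primary untreated tumors and at 78.3, 44.4 and 54.1 CPM in the recurrent 17-DMAG tumors. Each recurrent tumor lay above each primary one, the nearest pair at 44.4 and 42.4 CPM, and no other of the 9 genes was free of overlap (15.1% of all genes were). The log2 fold change of Bak1 was 0.74 (SE 0.23, 95% interval 0.22 to 1.26, edgeR adjusted p = 0.509), and it was 0.50 without recurrent tumor 1. Bmf had the largest difference, 0.82, with a 95% interval of -0.53 to 2.17, and without recurrent tumor 1 it was at 0.053. For the remaining 7 genes the values ran from -0.29 for Bad to 0.34 for Bcl2.

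Under STV, recurrent against primary tumors, 0 of the 9 genes and 0% of all genes were called, and 1, Bid, stood at an unadjusted p under 0.05 (10.1% of all genes). Bid was at 32.0, 16.5 and 32.7 CPM in the primary STV tumors and at 17.2 and 17.3 CPM in the recurrent ones, so that primary tumor 2 lay below both recurrent tumors (log2 fold change -0.65, SE 0.27, 95% interval -1.24 to -0.05, edgeR adjusted p = 0.470). The groups did not overlap for Bik and Bcl2, 2 of the 9 genes, against 35.3% of all genes. Bik was at 17.4, 19.0 and 12.6 CPM in primary and at 11.3 and 2.32 CPM in recurrent tumors, a log2 fold change of -1.26 (SE 0.57, 95% interval -2.54 to 0.01), which was -0.54 without 17-DMAG+STV tumor 2 and -2.82 without 17-DMAG+STV tumor 1 (edgeR adjusted p = 0.0516). Bcl2 was 0.43 higher (-0.10 to 0.96).

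Averaged over both water arms, recurrent tumors exceeded primary tumors by 0.46 for Bak1 (SE 0.17, 95% interval 0.08 to 0.85, edgeR adjusted p = 0.327) and by 0.38 for Bcl2 (SE 0.16, 0.03 to 0.74, adjusted p = 0.345). These 2 were at an unadjusted p under 0.05 (13.6% of all genes), 0 were called, and 0 were free of overlap (1.34% of all genes). For Mcl1 the average was 0.10 (-0.15 to 0.35). The interaction, which tests whether the recurrence difference itself differed with STV, gave 0 of 9 genes at an unadjusted p under 0.05 (7.84% of all genes) and 0 called. Its lowest values were -1.19 for Bmf (95% interval -3.23 to 0.84), -1.14 for Bik (-2.80 to 0.52) and -0.72 for Bid (-1.51 to 0.06). Without 17-DMAG+STV tumor 1 they were -2.78 for Bmf and -2.72 for Bik, without 17-DMAG+STV tumor 2 -0.50 and -0.44, and without 17-DMAG tumor 1 the Bmf value was -0.43. DESeq2 and limma voom called 0 of the 9 genes in each of the comparisons among tumors, where they called 17 to 419 and 0 genes of the table. With 2 or 3 tumors in a group, intervals of this width leave sizeable differences possible in both directions.

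Among themselves the 9 genes differed in how much they varied over the 11 tumors. Mcl1 was the steadiest, with a standard deviation of 0.18 on the log2 scale, and 18.3% of all genes varied less. Bcl2l1, Bad and Bcl2l11 had 0.28, 0.28 and 0.30, below the median of all genes, 0.37. Bak1, Bcl2 and Bid had 0.39, 0.42 and 0.44. Bmf and Bik were the most variable, with 0.95 and 0.83, and 84.8% and 80.0% of genes varied less. From its lowest tumor, 17-DMAG+STV tumor 2, to its highest, 17-DMAG tumor 1, Bmf spanned a 16.6-fold range, and Mcl1 spanned 1.57-fold.

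Ratios within a library do not depend on the scaling between libraries, but those of Bcl2 to Bcl2l1 depend on the exon lengths: per kb Bcl2 was the higher in 5 of 11 tumors, by raw counts in 10 of 11. Per kb, Mcl1 exceeded Bcl2l1 by 3.08 to 5.27-fold in the tumors, with a median of 3.73, and by 4.76 and 5.59-fold in the glands. The ratio of Bcl2 to Bcl2l1 was 0.744 and 0.183 in the glands. It was 1.09, 0.489 and 0.766 in primary untreated tumors and 1.31, 1.57 and 0.893 in primary STV tumors. In recurrent tumors it was 0.922, 0.930 and 0.950 after 17-DMAG and 1.07 and 2.13 after 17-DMAG+STV, so that the highest value belonged to 17-DMAG+STV tumor 2 and gland 2 had the lowest. The ratio of Bcl2l11 to Mcl1, the BIM message to that of one of its main partners, was 0.126 and 0.0564 in the glands and 0.114 to 0.253 in the tumors, with a median of 0.190. Gland 1 lay inside the tumor range and gland 2 below it.

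The other genes of the pathway were read as 4 lists. Of 14 tested genes among the other family members, 1 was called in either comparison against the glands. Of all genes, 10.4% were called in the tumors and 2.11% in primary untreated tumors. The called gene of the list, Bcl2l15, was at 13.98 and 77.5 CPM in the glands and 1.28 to 7.73 CPM in the tumors. It fell by 4.12 on the log2 scale in the tumors (edgeR adjusted p = 0.00221) and fell by 4.72 in primary untreated tumors (adjusted p = 0.0369). Without gland 2, the higher gland, these values were -2.33 (adjusted p = 0.0896) and -2.92 (adjusted p = 0.118), so both calls rested on that gland. The call in primary untreated tumors was also lost without any 1 of the 3 untreated tumors, any 1 of the 3 primary STV tumors or recurrent 17-DMAG tumor 3 (adjusted p = 0.0575 to 0.173). DESeq2 called 2 genes of this list in the tumors, Bcl2l14 besides, beside 18.9% of all genes, and limma voom 1, beside 9%. Both tools called the same genes in primary untreated tumors, beside 13.7% and 2.41% of all genes. Bcl2l14 was at 17.9 to 36.1 CPM in the glands, 88.2 to 142 CPM in primary untreated and 82.1 to 144 CPM in primary STV tumors. It was at 41.2 to 89.7 CPM in recurrent 17-DMAG tumors and 19.7 to 85.1 CPM in recurrent 17-DMAG+STV tumors. The list's median in the tumors was -0.26 against -0.02 for all genes. The effector Bax, named after its values were seen, was at 15.6 and 20.8 CPM in the glands and at 11.7 to 28.6 CPM in the tumors, with a log2 fold change of -0.21 (95% interval -0.88 to 0.45). Of 13 genes of the apoptosome, the caspases and the released mitochondrial factors, 0 were called by edgeR in tumors against glands, 3 stood at an unadjusted p under 0.05 (29.6% of all genes), and 12 had a value below 0, as had 51.6% of all genes (median -0.12). DESeq2 called 1 of them, the gene of cytochrome c, Cycs, beside 18.9% of all genes, and limma voom 0, beside 9%.

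Of 14 caspase inhibitors and genes of the death receptor arm, 3 were called lower in tumors than in glands, as were 8.81% of all genes, and 0 higher. Birc3, a ubiquitin ligase of the inhibitor of apoptosis family that acts in TNF receptor signalling, was at 34.2 and 51.0 CPM in the glands and 13.9 to 28.8 CPM in the tumors, and fell by 1.17 on the log2 scale (edgeR adjusted p = 0.00650). In primary untreated tumors it fell by 1.43 (adjusted p = 0.0369), a call that was lost without any 1 of the 6 primary tumors or of the recurrent 17-DMAG tumors 2 and 3 (adjusted p = 0.0507 to 0.156). Ripk1, a kinase of the same receptor complex, was at 49.7 and 82.7 CPM in the glands and 37.5 to 46.2 CPM in the tumors, and fell by 0.66 (adjusted p = 0.0240). Casp8, which cuts BID and is named after its values were seen because its groups overlap, fell by 0.70 (adjusted p = 0.0352), although its highest tumor, at 49.4 CPM, lay above the lower gland, at 45.4 CPM. Without gland 2 the value of Birc3 was -1.35 (adjusted p = 0.0138), while those of Ripk1 and Casp8 were -0.16 (adjusted p = 0.634) and -0.45 (adjusted p = 0.433), no longer called. Leaving out 1 of 8 tumors, each of the 3 primary untreated and 2 recurrent 17-DMAG+STV tumors among them, also ended the call of Casp8, with adjusted p from 0.0522 to 0.0640. DESeq2 and limma voom each called these 3 genes of the list in the tumors, beside 18.9% and 9% of all genes. In primary untreated tumors DESeq2 called 4, Fas besides, beside 13.7% of all genes, and limma voom called Birc3 alone, beside 2.41%. Fas, named after its values were seen, was at 10.1 and 10.3 CPM in the glands and 2.89 to 5.54 CPM in these tumors. It was at 6.34 to 16.2 CPM in the recurrent 17-DMAG+STV tumors. The list's median in the tumors was 0.01. Of 17 partners and regulators of the members, such as the BIM regulator Foxo3, 0 were called by edgeR, DESeq2 or limma voom and 2 stood at an unadjusted p under 0.05, again beside 29.6% of all genes (median 0.00). In the comparisons among tumors, 0 genes of the 4 lists were called by edgeR. At most 4 genes of a list stood at an unadjusted p under 0.05 in any of them, and the share of all genes ran from 3.76% to 13.6%. The 4 were of the 14 other family members in the recurrence average, where the share of all genes was 13.6%. Among tumors, DESeq2 called 1 gene of the lists, Birc5 with STV in recurrent tumors, beside 277 genes of the table, and limma voom 0. Birc5 was at 20.1 to 23.8 CPM without STV and 5.12 to 11.3 CPM with it. The 6 proliferation genes summed to 786 to 819 CPM without STV and 157 to 356 CPM with it in these tumors. Their part in the Birc5 difference was not tested.

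Over the 11 tumors, the 3 genes whose log2 levels followed each member most closely were found among 12692 genes whose log2 CPM averaged 1 or more. For Bcl2 these were Tmem229b (Pearson's r 0.93, Spearman's rho 0.87), Pef1 (0.93, 0.78) and Trim14 (0.92, 0.95). For Mcl1 they were Grk6 (0.95, 0.95), Myo10 (0.93, 0.89) and Slpi (0.92, 0.85), and for Bcl2l1 Scnn1g (0.91, 0.93), Tbrg1 (0.90, 0.84) and Rnf44 (0.90, 0.93). Bak1 was followed by Hn1l (0.96, 0.96), Ttyh3 (0.95, 0.91) and Sept8 (0.95, 0.95). Among the BH3-only genes, Bad was followed by Galr2, Hint3 and Oxld1 (each r 0.97), Bmf by Stk4 (0.95), Kdm7a and Igsf9 (each 0.92), and Bid by Flrt3 (0.94), 1700017B05Rik (0.93) and Sncaip (0.90). Bik was followed by Cobl and Cgn (each 0.93), and Bcl2l11 less closely by Ssbp2 (0.88), Espn (0.82) and Dennd1a (0.80). The rank correlations ran from 0.54 to 0.82 for Bcl2l11, Bid, Bik and Bmf and from 0.78 to 0.96 for the other members. Between members, the extremes of Pearson's r were Mcl1 with Bmf (r 0.73, rho 0.72) and Mcl1 with Bad (r -0.80, rho -0.62), while by rank the lowest were Bcl2 with Bid and Bid with Bad (each rho -0.66). These values describe 11 tumors that share group differences and 1 scaling, and the best of 12692 genes is high by selection.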

How the data were processed

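RNA of 11 mammary tumors and 2 cancer-free mammary glands was sequenced. The deposited table holds raw read counts per gene, whole numbers that the authors made by aligning reads with STAR to mm10/GRCm38 and counting them with featureCounts on the UCSC annotation. The submitters' processing notes name bcl2fastq 2.20 and Subread 1.6.2, and the study's own normalization used DESeq2. The strand setting and the treatment of multi-mapping reads are not given in the sources used here. Each library was mapped by its column name to the labels.

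From the counts, genes were kept by filterByExpr and fitted with edgeR 4.0.16 in R 4.3.3 (TMM, robust quasi-likelihood dispersion, 1 mean per group). Comparisons with glands used all 13 libraries (17135 genes of 24421), and comparisons among tumors used the 11 tumors (16870 genes). Tests were two-sided, p-values were adjusted over all genes tested by the Benjamini-Hochberg method, and genes were called at 0.05. Log2 levels used a prior count of 2. The fitting steps were tested on simulated data. The 9 genes were named in every comparison, list genes where they were called without overlap of the groups, and the 3 genes most like each member, of which 1 is not reported here. The members and lists were chosen with earlier results of these data known. Alternatives were limma 3.58.1 with voom, DESeq2 1.42.0, other scalings, no low-count filter, a fit of only the groups compared, scaling without Rn45s and the milk, adipocyte and muscle genes, a replicate block and leaving out each library. Replicates of a group differed by more than sampling noise in every pair, so none was taken as the same library counted again. This check cannot tell separate tumors or mice from separate libraries of 1 tumor or mouse. With 39921388 to 56887708 counts in a library, counting error is small beside the spread between tumors.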

Additional observations from a re-analysis of the deposited data

How the results depend on the processing

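Of 1539 alternative values of 81 log2 fold changes (9 genes in 9 comparisons), 1478 kept their direction and their side of the threshold, 8 passed it and 53 reversed, 48 of these when 1 library was left out; 49 of the 81 never reversed. DESeq2 and limma voom each called 1 of the 9 genes in tumors against glands. Leaving out 1 library gave 0 to 3 calls in that comparison and in primary untreated tumors against glands, with 3 without gland 1. Scaling by library totals alone, which by construction moved the median of all genes to 0.36 and 0.37, reversed Mcl1 in primary untreated tumors against glands (0.12) and Mcl1 (0.15) and Bak1 (0.35) in tumors against glands. The recurrence average of Bmf reversed to -0.080 with limma voom and to -0.12 with the replicate block. The cause of the other changes was not tested.

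With 1 library left out, the reversed values ran as follows on the log2 scale. Against glands, Bak1 ran from -0.58 to 0.39 in the tumors and from -0.97 to 0.0073 in the primary untreated tumors. For STV in primary tumors, Bad ran from -0.091 to 0.099, Bcl2l1 from -0.37 to 0.017, Bcl2l11 from -0.34 to 0.10, Bid from -0.34 to 0.076 and Mcl1 from -0.17 to 0.0097. For STV in recurrent tumors, Bak1 ran from -0.42 to 0.019, Bcl2l1 from -0.50 to 0.25 and Bcl2l11 from -0.66 to 0.20. For the average over STV, Bak1 ran from -0.042 to 0.18, Bcl2l1 from -0.35 to 0.027, Bcl2l11 from -0.37 to 0.054 and Bik from -1.05 to 0.093. For recurrence without STV, Bcl2l1 ran from -0.14 to 0.25, Bcl2l11 from -0.094 to 0.013, Bid from -0.025 to 0.14 and Bik from -0.43 to 0.10. Under STV, Bad ran from -0.011 to 0.15, Bcl2l1 from -0.26 to 0.49, Bcl2l11 from -0.60 to 0.26, Bmf from -1.93 to 0.35 and Mcl1 from -0.089 to 0.19. For the recurrence average, Bcl2l1 ran from -0.11 to 0.26, Bcl2l11 from -0.31 to 0.12 and Bmf from -0.54 to 0.60. For the interaction, Bcl2 ran from -0.19 to 0.24, Bcl2l1 from -0.30 to 0.45, Bcl2l11 from -0.57 to 0.28 and Mcl1 from -0.25 to 0.033.

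Counts of genes called over the whole table depended more on the settings. In primary untreated tumors against glands, 361 genes were called by edgeR, 2352 by DESeq2, 413 by limma voom, 255 with no low-count filter, 19 with library totals alone, 4 with the replicate block and 0 with only the groups compared. In tumors against glands the counts were 1785, 3242 by DESeq2, 1542 by limma voom, 489 with library totals alone and 371 with the replicate block. Leaving out gland 1 gave 3381 and 4255 calls in these comparisons and leaving out gland 2 gave 257 and 535. Leaving out 1 tumor gave 0 (untreated tumor 2 or 3) to 1360 (17-DMAG tumor 1) in the first and 1168 (17-DMAG+STV tumor 1) to 3100 (17-DMAG tumor 1) in the second. Among tumors, with all libraries, edgeR called 0 in every comparison and DESeq2 17 to 419. Without 17-DMAG+STV tumor 1, edgeR called 100 genes for recurrence under STV, 141 for STV in recurrent tumors, 28 for the STV average, 6 for the recurrence average and 77 for the interaction. For recurrence under STV it called 18 without 17-DMAG tumor 1 and 2 with only the groups compared, and no other setting gave more than 1 call. The label numbers were taken as not pairing the samples, since the deviations of same-numbered libraries from their group means had correlations between -0.29 and 0.22 over 23 pairs. The replicate block called 0 of the 9 genes in every comparison. It ended the calls of Casp8 and Ripk1 in the tumors and of Bcl2l15 and Birc3 in the primary untreated tumors, and library totals alone ended these and that of Birc3 in the tumors. A fit of only the groups compared also ended the calls of Bcl2l15 and Birc3 in the primary untreated tumors. The alternatives for these 4 genes were added after the genes had been called. By raw counts in place of levels per kb, the tumor median of Bcl2 to Bcl2l1 went from 0.950 to 1.90, which turned the order of these genes, that of Bcl2l11 to Mcl1 from 0.190 to 0.447 and that of Mcl1 to Bcl2l1 from 3.73 to 2.78. Groups of 2 or 3 libraries, more than depth, limit the precision.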
